A study of Mus musculus with 28 samples.

Results

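H3K27ac at the genes of the laminin, nidogen and perlecan scaffold of the basement membrane was examined in NMuMG cells, an established epithelial line from normal mouse mammary gland (subclone NMuMG/E9). The genes are Lama3 and Lama5 (laminin α chains), Lamb1, Lamb2 and Lamb3 (β chains), Lamc1 (γ chain), Nid1 and Nid2 (nidogens) and Hspg2 (perlecan). A peak was assigned to one of them where its summit lay within 100 kb of a start site of that gene and no start site of another protein-coding gene was nearer. This gave 1014 of 893719 peaks over 15 libraries, which merge into 89 of 89050 regions. The 9 genes are among 22372 protein-coding genes of the annotation.

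All 15 libraries are H3K27ac ChIP-seq of the same line, 3 for each of 5 conditions. Cells were untreated (0h), or received TGF-β at 2 ng/ml for 4h or 24h with the solvent DMSO, or received TGF-β for 4h or 24h with the MEK inhibitor UO126 at 25 µM, added 30 min before TGF-β (ERKi 4h and ERKi 24h). No condition had UO126 without TGF-β, and no allele was changed in any group. The labels do not say whether the libraries of a condition came from separate cultures, so the p-values measure the spread between these libraries, which may be technical.

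Basement membranes are sheets of matrix on which epithelia rest. Laminins are secreted as trimers of an α, a β and a γ chain, bind integrins and dystroglycan at the cell surface and polymerize, and nidogens and perlecan join the laminin network to the collagen IV network. Laminin-332, which holds the Lama3 and Lamb3 chains, anchors epithelia through hemidesmosomes, and laminin-511 (Lama5, Lamb1, Lamc1) is widespread below epithelia. H3K27ac, acetylation of lysine 27 of histone H3, marks active promoters and enhancers. TGF-β drives these cells through epithelial-mesenchymal transition, and MEK phosphorylates ERK.

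The libraries held between 50445 and 69180 peaks. As a check of the line, 5 of 9 luminal epithelial markers (Cdh1, Krt8, Krt18, Krt19 and Elf3) had a peak within 2500 bp of a start site in all 15 libraries, while Epcam, Cldn7 and Esrp1 had one in none. None of 4 endothelial and none of 4 leukocyte markers had such a peak in any library. Of 5 fibroblast markers Dpt and Col1a1, and of 4 basal markers Krt5, had one in all libraries. Smad7 and Skil, direct targets of TGF-β signalling, had one throughout. Etv4, an ERK target, had such a peak in 14 of 15 libraries. Its mean pileup percentile was 80.6 at 4h and 87.8 at 24h, against 26.5 in ERKi 4h and 11.2 in ERKi 24h. That of Dusp6, another ERK target, was 94.9 at 24h and 93.1 in ERKi 24h.

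The 9 genes differed in where H3K27ac lay before they differed in how it moved. Lama5, Lamb2, Lamc1 and Hspg2 had a region called in all 15 libraries at or just inside the start site, with summits 0.2 to 0.3 kb downstream. Lamb1 had a region over its start site and Lamb3 one that covers its start site, with its summit 0.8 kb upstream, both also called in 15 libraries. Nid1 and Nid2 had no region at the start site in any library. The Nid1 peaks lay in its introns 26.9 to 56.3 kb into the gene, and the Nid2 peaks lay upstream, between 5.1 and 43.8 kb, apart from 1 peak of 1 library in an intron.

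Lama3, which encodes the α chain of laminin-332, received no peak by the rule. Its 249.0 kb body held 23 peaks in 14 of 15 libraries, all 62.6 kb or more from a Lama3 start site and nearer to the start of Gm17506, a predicted gene. These are not counted below.

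Of the 89 regions, 26 were called in every library and 20 in 1 library only. Lamc1 had the most regions (19), followed by Lama5 and Hspg2 with 15 each, Lamb3 with 12, Lamb1 with 10, Nid2 with 9, Nid1 with 7 and Lamb2 with 2. Lamb3 had 1 region in all libraries and 8 in 2 to 14 of them, Lamb1 had 4 and 5, and both Lamb2 regions were found throughout.

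**Figure D1:**
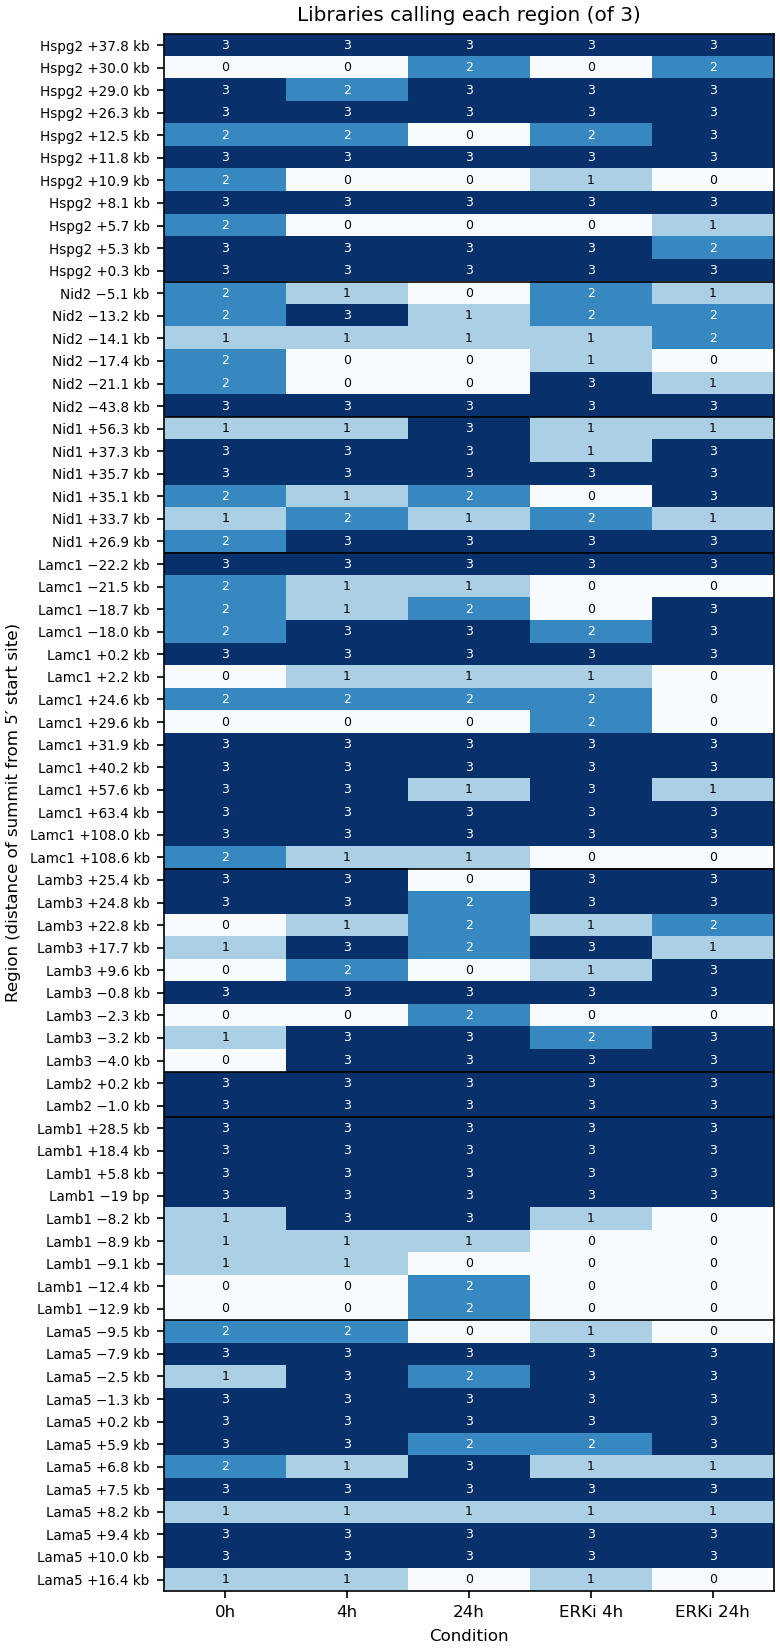
Number of libraries, of 3 per condition (columns), that called each region of the 8 genes with peaks (rows, named by the distance of the summit from the 5′-most start site); regions called in 1 library are left out. Lamb3 4.0 kb upstream is empty at 0h and full elsewhere, and Lamb1 8.2 kb upstream is full at 4h and 24h and empty in ERKi 24h.

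Of the regions called by limma below, 6 are shown by sequence, each as the 300 bases around the summit (NCBIM37, mm9, plus strand). Capitals mark letters of the motifs searched on both strands, which were TGANTCA (AP-1), CCGGAA (ETS), TGTGGT (RUNX), GGAATG (TEAD), CAGACA (SMAD), GTCTAGAC (SMAD pair, which shares AGAC with the SMAD letters), CACCTG (ZEB and SNAI), AACCNGTT (GRHL) and TGTTTAC (FOX).
Lamb1 intron, 5.8 kb from the start, chr12:31955703-31956002: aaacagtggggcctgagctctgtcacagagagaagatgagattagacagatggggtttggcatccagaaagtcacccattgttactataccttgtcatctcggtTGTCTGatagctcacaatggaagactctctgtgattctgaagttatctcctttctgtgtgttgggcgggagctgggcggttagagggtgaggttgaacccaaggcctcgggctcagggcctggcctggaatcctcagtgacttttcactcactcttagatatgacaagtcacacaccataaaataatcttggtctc
Lamb1 intron, 28.5 kb from the start, chr12:31978427-31978726: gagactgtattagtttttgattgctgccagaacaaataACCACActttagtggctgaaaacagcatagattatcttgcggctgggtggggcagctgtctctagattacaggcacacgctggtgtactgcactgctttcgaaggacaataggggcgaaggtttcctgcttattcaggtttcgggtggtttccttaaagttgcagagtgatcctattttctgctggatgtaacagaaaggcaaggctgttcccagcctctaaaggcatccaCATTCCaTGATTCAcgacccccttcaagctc
Lama5 upstream, chr2:179968265-179968564: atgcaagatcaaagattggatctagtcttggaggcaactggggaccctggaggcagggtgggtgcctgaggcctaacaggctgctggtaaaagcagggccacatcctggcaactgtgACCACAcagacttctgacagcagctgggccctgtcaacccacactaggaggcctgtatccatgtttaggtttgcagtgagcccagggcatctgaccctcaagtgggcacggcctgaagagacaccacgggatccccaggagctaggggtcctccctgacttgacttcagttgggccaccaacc
Lamb3 promoter, chr1:195127200-195127499: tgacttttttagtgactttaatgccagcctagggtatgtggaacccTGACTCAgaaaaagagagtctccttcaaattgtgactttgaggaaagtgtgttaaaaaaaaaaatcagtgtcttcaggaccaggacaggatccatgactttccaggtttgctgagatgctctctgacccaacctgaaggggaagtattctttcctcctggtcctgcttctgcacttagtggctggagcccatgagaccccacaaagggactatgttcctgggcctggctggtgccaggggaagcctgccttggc
Lamc1 intron, chr1:155071789-155072088: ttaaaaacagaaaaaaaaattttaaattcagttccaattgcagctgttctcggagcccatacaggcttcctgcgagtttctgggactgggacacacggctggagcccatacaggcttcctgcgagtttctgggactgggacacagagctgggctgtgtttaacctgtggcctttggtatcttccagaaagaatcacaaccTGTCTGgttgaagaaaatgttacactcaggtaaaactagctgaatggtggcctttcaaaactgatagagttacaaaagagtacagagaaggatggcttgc
Nid2 upstream, chr14:20526481-20526780: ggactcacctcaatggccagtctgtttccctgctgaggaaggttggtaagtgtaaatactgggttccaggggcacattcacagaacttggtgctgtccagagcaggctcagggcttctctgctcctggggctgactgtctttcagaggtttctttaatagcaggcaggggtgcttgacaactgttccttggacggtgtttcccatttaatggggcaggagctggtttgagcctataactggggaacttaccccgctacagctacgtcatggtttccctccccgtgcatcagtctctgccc
The Lamb3 promoter and the Lamb1 region at chr12:31978427-31978726 each held 1 AP-1 match, found in 9.99% of all 89050 windows of this length, and the Lamb1 region also 1 RUNX and 1 TEAD match. The Lamb1 region at chr12:31955703-31956002 and the Lamc1 intron held 1 SMAD match each (27.9% of all windows), the Lama5 region 1 RUNX match (20.4%), and the Nid2 region none of the motifs. Of the called regions not shown, that 18.4 kb from the Lamb1 start held 1 TEAD and 2 ZEB and SNAI matches. That 11.8 kb into Hspg2 held 1 ETS, 1 TEAD and 1 ZEB and SNAI match. Over the 89 regions AP-1 letters were found in 5.62%, RUNX in 25.8%, TEAD in 19.1% against 16.3% of all, SMAD in 25.8%, ZEB and SNAI in 22.5% against 21.2%, and ETS in 5.62% against 5.67%. These matches describe letters of the reference and are no measure of binding.

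Levels were compared by the scaled pileup, the number of fragments over the summit of the highest peak of a region, recovered from each list and divided by the scaling factor of the library. The comparison needs a value in every library, which 26 of the 89 regions had, of 26920 in all. These 26 regions include no region that was absent from a condition. Calls are those with an adjusted p below 0.05 in limma over all 26920 regions. Whether the scaled pileups of 2 groups overlap at a region is a description, given with no share over all regions. In such bulk samples, fewer cells with the mark and less mark per cell cannot be told apart, and the nearest start site does not show which gene a distal region serves.

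At 24h against 0h, 5 of the 26 regions were called higher, against 10.8% of all regions, and 2 lower, against 6.56%. The 5 are 3 intronic regions of Lamb1, the Lamb3 promoter and a region upstream of Lama5. At 4h against 0h, 2 were called higher (3.48% of all regions) and 0 lower (0.167%, with 0 of these regions also at an unadjusted p below 0.05). Under ERKi at 24h, 1 region was called higher (3.01%) and 2 lower (4.15%). Under ERKi at 4h limma called 0 higher (0.00743%) and 0 lower (0.234%), with 1 higher and 3 lower at an unadjusted p below 0.05, which 5.5% of all regions had in either direction. With the replicate number as a block, which pairs the libraries, 5 were called higher at 4h (12% of all regions) and 0 lower (5.17%), and 7 higher (18.8%) and 4 lower (17.3%) at 24h. In ERKi 4h the block gave 0 higher (0.877%) and 3 lower (3.29%), and in ERKi 24h 3 higher (13.4%) and 7 lower (14.1%). The ERKi effect at 24h was not distinguished from that at 4h at any region of the genes (limma interaction, 0 called, 0% of all regions, and 1 lower at an unadjusted p below 0.05, against 5.39% of all regions in either direction).

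**Figure D2:**
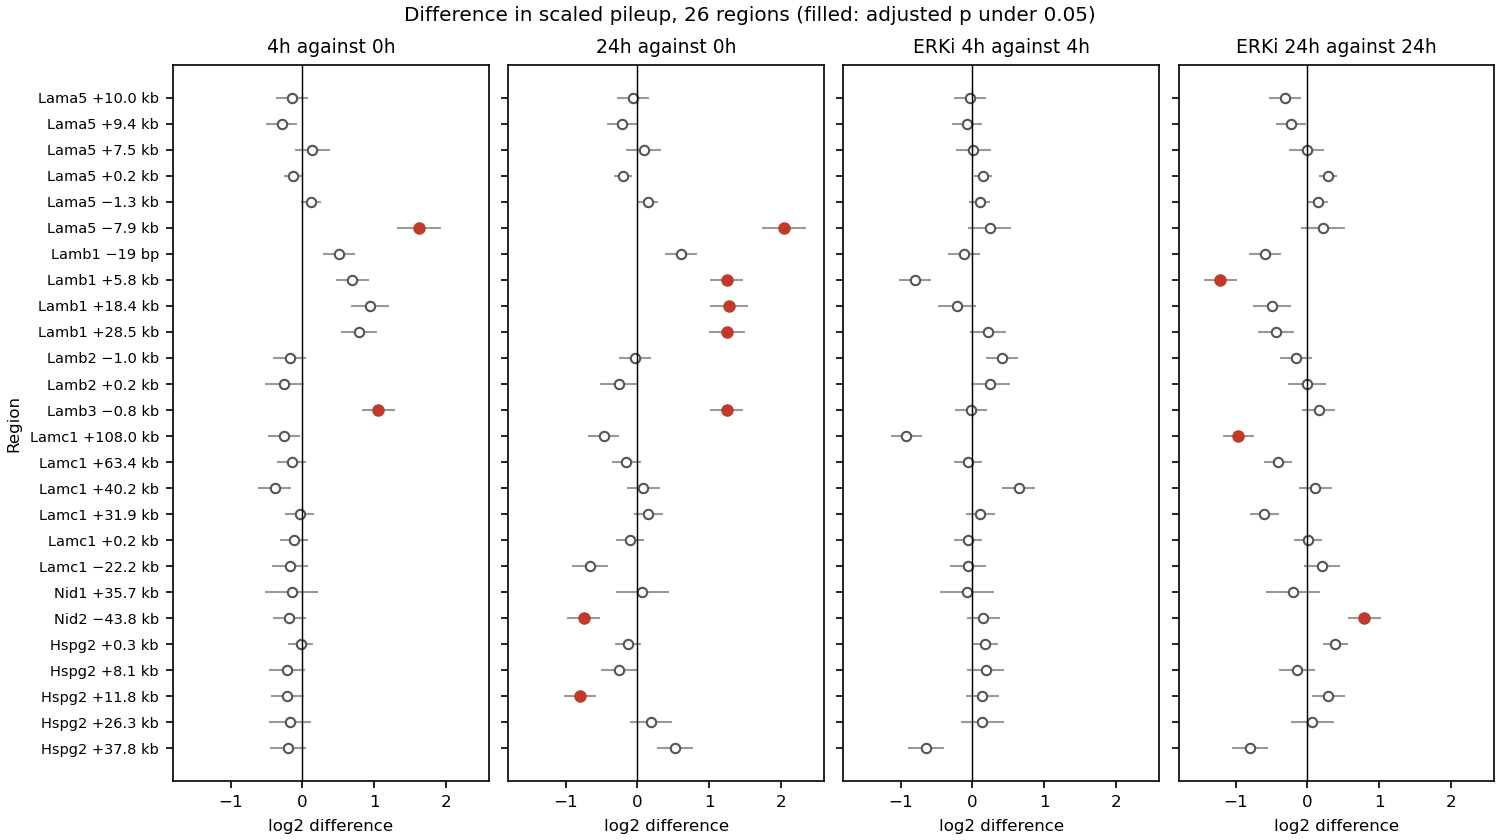
Log2 difference in scaled pileup (points, with the standard error as bars) for the 26 regions found in every library, in 4 comparisons; filled points passed an adjusted p of 0.05. The points to the right at 24h against 0h are Lama5 7.9 kb upstream, 3 Lamb1 introns and the Lamb3 promoter; comparisons with 24h as a member share those libraries.

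Lamb1, a β chain of the widespread laminins, was the gene with the most called regions. The strongest of its 4 regions is in an intron 5.8 kb from the start (chr12:31955247-31957258). Its scaled pileup was 52.4, 63.8 and 63.6 fragments at 0h, and with TGF-β it was 102, 85.8 and 103 (4h) and 123, 145 and 158 (24h). In ERKi 4h it was 38.8, 63 and 70, and in ERKi 24h 47.7, 65.7 and 72.1. All 24h libraries were above all 0h libraries, and all ERKi 24h libraries were below all 4h and 24h libraries, while the 0h and ERKi 24h groups overlapped. The difference at 24h was 1.25 ± 0.227 on the log2 scale (SE, limma, adjusted p = 0.000816), and that of ERKi 24h against 24h was -1.22 ± 0.227 (adjusted p = 0.0034). At 4h the difference was 0.70 (adjusted p = 0.117, and 0.00122 with the replicate block), and ERKi 4h against 4h was -0.80 (adjusted p = 0.265, and 0.00135 with the block).

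Further into the gene, the region 18.4 kb from the Lamb1 start (chr12:31967760-31969462) had 10.2, 15.4 and 13.2 fragments at 0h and 33, 21.7 and 41.1 at 24h, with 21.9, 20.3 and 33.1 at 4h. Its pileup before scaling was 14, 13 and 12 at 0h, near the lowest pileup of the lists (9 to 11 by library). In ERKi 24h the region had 22, 18 and 26.4. The groups at 0h and 24h did not overlap, while ERKi 24h overlapped 24h. It rose by 1.28 ± 0.267 (log2, SE, adjusted p = 0.00245), and ERKi 24h against 24h was -0.50 (adjusted p = 0.326). At 4h the difference was 0.94 (adjusted p = 0.0609, and 0.00203 with the block).

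The region 28.5 kb from the Lamb1 start (chr12:31977589-31979384) had 22.6, 15.4 and 24.1 fragments at 0h, 36.7, 26.2 and 45 at 4h and 49.5, 45.6 and 50.4 at 24h. In ERKi 4h it had 35, 39.5 and 48.7, and in ERKi 24h 29.4, 38.6 and 40.3. It rose by 1.26 ± 0.251 at 24h (log2, SE, adjusted p = 0.00177), with ERKi 24h against 24h at -0.44 (adjusted p = 0.366). The libraries of ERKi 24h and 24h did not overlap, and the difference was not called. At 4h the difference was 0.79 (adjusted p = 0.105, and 0.00384 with the block).

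The Lamb1 start site region (chr12:31949022-31950369) was weak, between 10.9 and 24.3 fragments in all libraries, and averaged 13.9 ± 2.34 (SD, n = 3) at 0h, 21.1 ± 2.81 at 24h and 14.1 ± 2.99 in ERKi 24h. The difference at 24h was 0.61 (adjusted p = 0.0771, and 0.0282 with the block), and that under ERKi -0.60 (adjusted p = 0.131, and 0.0395 with the block). A weak region 8.2 kb upstream of Lamb1 was called in 1 library at 0h, in all 3 at 4h and all 3 at 24h, in 1 in ERKi 4h and in 0 in ERKi 24h. It was thus in all libraries of 24h and none of ERKi 24h, as were 1.21% of all regions.

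**Figure D3:**
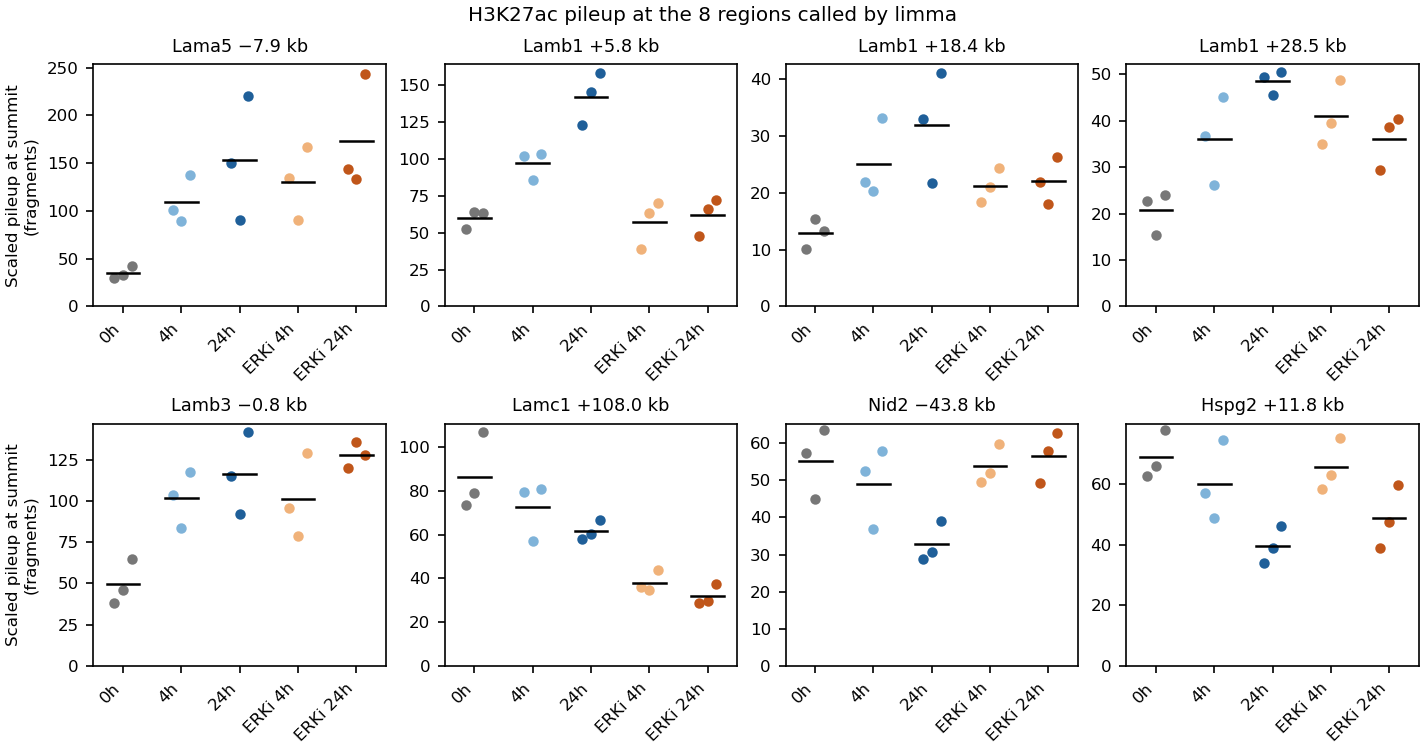
Scaled pileup at the summit (vertical axis, fragments) in each library (points) of the 5 conditions, with the mean as a bar, for the 8 regions that limma called in at least 1 comparison. The 3 libraries of ERKi 24h sit between 47.7 and 72.1 at Lamb1 5.8 kb, below the 3 of 24h, and between 133 and 243 at Lama5 7.9 kb upstream, which overlaps 24h.

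Lamb3, the β chain of laminin-332, had the only promoter region of these genes that limma called without the block. Its promoter region (chr1:195126884-195128905) had 37.9, 46.1 and 64.7 fragments at 0h, 104, 83.5 and 118 at 4h and 115, 92.4 and 142 at 24h. In ERKi 4h it had 96.1, 79.1 and 129 and in ERKi 24h 120, 136 and 128. Every library with TGF-β was above every 0h library, with or without the inhibitor. The difference was 1.06 ± 0.228 at 4h (log2, SE, limma adjusted p = 0.0119) and 1.25 ± 0.228 at 24h (adjusted p = 0.000858). The call at 4h was lost without 0h replicate 1 (0.884), 0h replicate 2 (1.025), 4h replicate 1 (1.036) or 4h replicate 3 (0.948). Against the matched times it was -0.02 ± 0.228 in ERKi 4h (adjusted p = 1) and 0.16 ± 0.228 in ERKi 24h (adjusted p = 0.79).

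Upstream of Lamb3 the lists changed in the same condition pair. The region 4.0 kb upstream (chr1:195123723-195124377) was in 0 libraries at 0h and in all 3 of each other condition, with 82.2, 68 and 100 fragments at 4h and 121, 77.6 and 135 at 24h, against 104, 69.5 and 141 in ERKi 24h. It was therefore in all libraries at 4h and none at 0h, as were 1.15% of all regions, and in all at 24h and none at 0h, as were 4.91%. A neighbouring region 3.2 kb upstream was in 1 library at 0h and in 3 at 4h and 3 at 24h. With peaks within 1000 bp merged, both fell into 1 region together with the Lamb3 promoter region. That merged region was not absent at 0h.

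In the body of Lamb3 the lists differed from region to region. The regions 17.7 and 22.8 kb into the gene were called in 1 and 0 libraries at 0h and in 2 each at 24h. The region 25.4 kb into the gene (chr1:195153354-195154278) was called in all 3 libraries at 0h and in none at 24h, as were 2.07% of all regions, and again in all 3 in ERKi 24h. Its level was 26.9, 22.4 and 37.3 fragments at 0h, 45.5, 38.1 and 54.2 at 4h and 33.8, 52.8 and 55 in ERKi 24h. The adjoining region 24.8 kb into the gene was still called in 2 libraries at 24h, with 26.9 and 41.1 fragments, against 63.1, 68.2 and 84.5 in ERKi 24h. The region 9.6 kb into the gene was in all libraries of ERKi 24h, at 21.3, 24.5 and 25.6 fragments, and in none at 24h. It was also called in 2 libraries at 4h and in 1 of ERKi 4h. Of all regions, 1.49% were in all libraries of ERKi 24h and none of 24h, like those at 9.6 and 25.4 kb.

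Lamb2, the β chain of synaptic and kidney laminins, had 2 regions and neither was called in any comparison. Its promoter region (chr9:108380885-108382024) averaged 63.4 ± 5.87 fragments (SD, n = 3) at 0h, 56 ± 5.06 at 4h, 62.6 ± 12.1 at 24h, 74.5 ± 8.33 in ERKi 4h and 57.2 ± 17.5 in ERKi 24h. The region 0.2 kb inside the gene averaged between 71.5 and 86.7 fragments.

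Lama5, the α chain of laminin-511, held the region with the largest difference of the set. It lies in intergenic sequence 7.9 kb upstream of the Lama5 start (chr2:179967231-179968774). It had 29.8, 33.1 and 42.7 fragments at 0h, 101, 89.4 and 138 at 4h and 150, 90.1 and 220 at 24h. In ERKi 4h it had 135, 90.2 and 167 and in ERKi 24h 144, 133 and 243. The lowest library with TGF-β had 89.4 fragments, against 42.7 in the highest at 0h. The difference was 1.62 ± 0.306 at 4h (log2, SE, limma adjusted p = 0.00445) and 2.05 ± 0.306 at 24h (adjusted p = 0.000156), a 4.13-fold difference. ERKi against DMSO was 0.24 ± 0.306 at 4h (adjusted p = 1) and 0.21 ± 0.306 at 24h (adjusted p = 0.788). Both differences were smaller than their standard errors.

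The other 5 regions of Lama5 found in every library, at the start site, 1.3 kb upstream of it and in introns, were called in no comparison by limma without the block. The start site region averaged 235 ± 3.74 fragments (SD, n = 3) at 0h, 214 ± 18.8 at 4h and 204 ± 8.51 at 24h. The region 9.4 kb into the gene averaged 214 ± 35.3, 177 ± 38.7 and 187 ± 51.5 at these times. The region 7.5 kb into the gene averaged between 184 and 205 fragments in the 5 conditions. With the block, ERKi 24h against 24h passed at the start site (log2 difference 0.29, adjusted p = 0.0269) and 10.0 kb into the gene (-0.32, adjusted p = 0.0499). Summed over all regions, Lama5 was at 1566 ± 526 fragments at 0h and 1560 ± 521 at 24h.

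Lamc1, the γ chain shared by most laminins, had 1 region called, and under the inhibitor. It lies in an intron 108.0 kb from the 5′ start, near the end of the 113.9 kb gene (chr1:155071588-155073100) and 4.3 kb from an alternative start. It had 73.5, 79.1 and 107 fragments at 0h, 79.6, 57.2 and 80.8 at 4h and 58.2, 60.5 and 66.8 at 24h. In ERKi 4h it had 35.9, 34.6 and 43.6 and in ERKi 24h 28.6, 29.6 and 37.2. Every ERKi library was below every library of the other 3 conditions. ERKi 24h against 24h was -0.97 ± 0.220 (log2, SE, limma adjusted p = 0.0124), and ERKi 4h against 4h -0.92 ± 0.220 (adjusted p = 0.129, and 0.000447 with the replicate block). The call at 24h was lost without ERKi 24h replicate 1 (-0.895) and with libraries scaled by their median pileup (-0.842). Against 0h it was -0.47 at 24h (adjusted p = 0.171, and 0.0186 with the block).

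The Lamc1 start site region was level, at 141 ± 34 fragments (SD, n = 3) at 0h, 129 ± 15.5 at 24h and 130 ± 4.67 in ERKi 24h. The region 31.9 kb into the gene averaged 64.4 ± 3.43 at 24h and 42.5 ± 4.37 in ERKi 24h, which did not overlap (log2 difference -0.60, adjusted p = 0.0833, and 0.00397 with the block). The intronic region 63.4 kb into the gene averaged 129 ± 21.7 at 24h and 98.3 ± 28.3 in ERKi 24h (adjusted p = 0.269, and 0.0129 with the block). The region 22.2 kb upstream averaged 30.8 ± 9.42 at 0h and 19.1 ± 3.14 at 24h (adjusted p = 0.0803, and 0.00978 with the block).

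Of the nidogens, Nid2 had 1 region in every library, 43.8 kb upstream of its start in intergenic sequence (chr14:20525962-20528754). It had 57.5, 44.9 and 63.6 fragments at 0h, 52.5, 37 and 57.9 at 4h and 28.7, 30.8 and 39.1 at 24h. In ERKi 4h it had 49.5, 51.9 and 59.9 and in ERKi 24h 49.2, 57.9 and 62.8. The 24h libraries were below those of 0h and of ERKi 24h, with no overlap, while 4h overlapped both. The difference was -0.75 ± 0.231 at 24h against 0h (log2, SE, limma adjusted p = 0.0304) and 0.79 ± 0.231 in ERKi 24h against 24h (adjusted p = 0.0452). Both comparisons use the same 24h libraries. The second was lost without any of 10 of the 15 libraries, and the first without 0h replicate 1 (-0.71), 0h replicate 3 (-0.64), 24h replicate 1 (-0.66) or 24h replicate 2 (-0.71), and with libraries scaled by their median pileup (-0.75).

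The other Nid2 regions were weak, each called in at most 10 libraries. The region 5.1 kb upstream was called in 2 libraries at 0h and 0 at 24h, that 17.4 kb upstream in 2 and 0, and that 21.1 kb upstream in 2 and 0. The regions 14.1 and 13.2 kb upstream were called in 1 and 2 libraries at 0h and in 1 each at 24h. That 22.0 kb upstream was in 1 and 0, and those 20.3 kb upstream and 13.2 kb into the gene were in 0 at both times. The region 21.1 kb upstream was also in all 3 libraries of ERKi 4h and none of 4h, as were 0.221% of all regions, at 12.6, 16.1 and 19.3 fragments.

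Nid1 had 1 region in every library, in an intron 35.7 kb into the gene (chr13:13565314-13566035), with 24.7, 28.3 and 46 fragments at 0h and 23.5, 29.7 and 53.4 at 24h. The groups overlapped in every comparison, and its log2 difference at 24h was 0.07 ± 0.372 (adjusted p = 0.947). The region 56.3 kb into the gene was called in 1 library at 0h and in 3 at 24h.

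Hspg2, which encodes the heparan sulfate proteoglycan perlecan, had 1 called region of 5. It lies in an intron 11.8 kb into the gene (chr4:137036217-137036776), and had 62.6, 66.1 and 77.8 fragments at 0h, 56.9, 48.9 and 74.4 at 4h and 33.9, 38.8 and 46.3 at 24h. In ERKi 24h it had 38.9, 47.6 and 59.7. All 24h libraries were below all 0h libraries, and it fell by 0.80 on the log2 scale at 24h (SE 0.229, limma adjusted p = 0.02). The call was lost without 0h replicate 3 (-0.71) or 24h replicate 1 (-0.695). The neighbouring region 12.5 kb into the gene was in 2 libraries at 0h, in 0 at 24h and in all 3 of ERKi 24h, as were 1.49% of all regions.

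At the region 37.8 kb into Hspg2 the means were 31.4 ± 5 fragments (SD, n = 3) at 0h, 27.3 ± 4.75 at 4h and 46.1 ± 13.9 at 24h, against 17.4 ± 2.86 in ERKi 4h and 25.9 ± 4.43 in ERKi 24h. The ERKi libraries were below those of the same time without overlap. The log2 difference was -0.80 ± 0.252 at 24h (adjusted p = 0.0644, and 0.00169 with the block) and -0.65 at 4h (adjusted p = 0.68, and 0.0421 with the block), and 24h against 0h was 0.52 (adjusted p = 0.189, and 0.0285 with the block). The Hspg2 start site region averaged between 66.5 and 86.7 fragments and was called in no comparison without the block, with which ERKi 24h against 24h passed (0.39, adjusted p = 0.219, and 0.0315 with the block).

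The local background that the peak caller had set beside each pileup moved with the pileup, and the fold enrichment, their ratio, did not always follow. At Lamb1 5.8 kb the scaled background was 6.9 ± 0.845 fragments (SD, n = 3) at 0h, 22.6 ± 4.72 at 24h and 7.2 ± 1.83 in ERKi 24h, and the fold enrichment was 7.73 ± 0.231, 6.2 ± 1.31 and 7.84 ± 1.04. At the Lamb3 promoter the background was 10.2 ± 1.89 at 0h and 43.1 ± 10.8 at 24h, and the fold enrichment 4.47 ± 0.403 and 2.68 ± 0.134, so that by fold enrichment this region was lower at 24h (log2 difference -0.74, limma adjusted p = 0.00451). At Lama5 7.9 kb upstream both measures rose at 24h, the fold enrichment from 2.72 ± 0.0779 to 4.52 ± 0.734 (adjusted p = 0.0111). At Lamc1 108.0 kb the background was 8.58 ± 1.5 at 24h and 5.08 ± 1.42 in ERKi 24h, and at Nid2 43.8 kb upstream 8.91 ± 1.11 at 0h, 5.16 ± 0.443 at 24h and 9.04 ± 1.14 in ERKi 24h. By fold enrichment the Lamb1, Lamc1, Nid2 and Hspg2 regions were called in no comparison. The part of the background in the pileup differences was not tested.

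**Figure D4:**
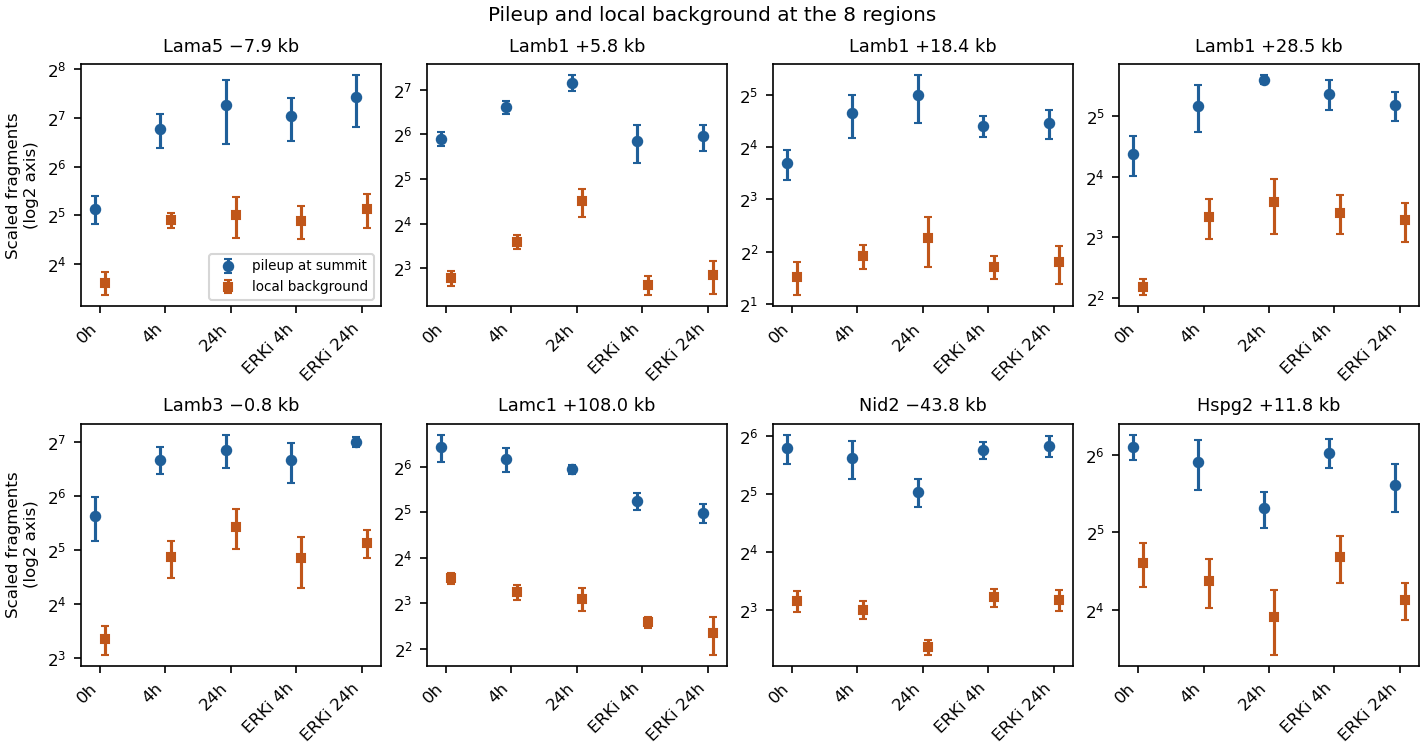
Mean scaled pileup at the summit (circles) and mean scaled local background (squares) on a log2 axis of fragments, with the SD over 3 libraries as bars, for the 8 called regions in 5 conditions. At Lamb1 5.8 kb both are high at 24h (142 and 22.6) and lower in ERKi 24h (61.8 and 7.2), and at the Lamb3 promoter the background rises from 10.2 to 43.1.

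Summed over all regions of a gene in a library, Lamb1 had 110, 111 and 137 scaled fragments at 0h, 192, 170 and 241 at 4h and 282, 268 and 362 at 24h, with 107, 147 and 175 in ERKi 4h and 114, 139 and 150 in ERKi 24h. The 24h libraries were above all others. Nid2 had 138, 62.6 and 118 at 0h and 28.7, 30.8 and 70.9 at 24h, with 77.8, 57.9 and 145 in ERKi 24h, and here the groups at 24h and ERKi 24h overlapped. Lamb3 had 128, 100 and 236 at 0h and 501, 244 and 627 at 24h, and Lamc1 averaged 543 ± 73.8 (SD, n = 3) at 24h and 417 ± 42.3 in ERKi 24h. The sum depends on which regions were called in a library and was not tested.

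**Figure D5:**
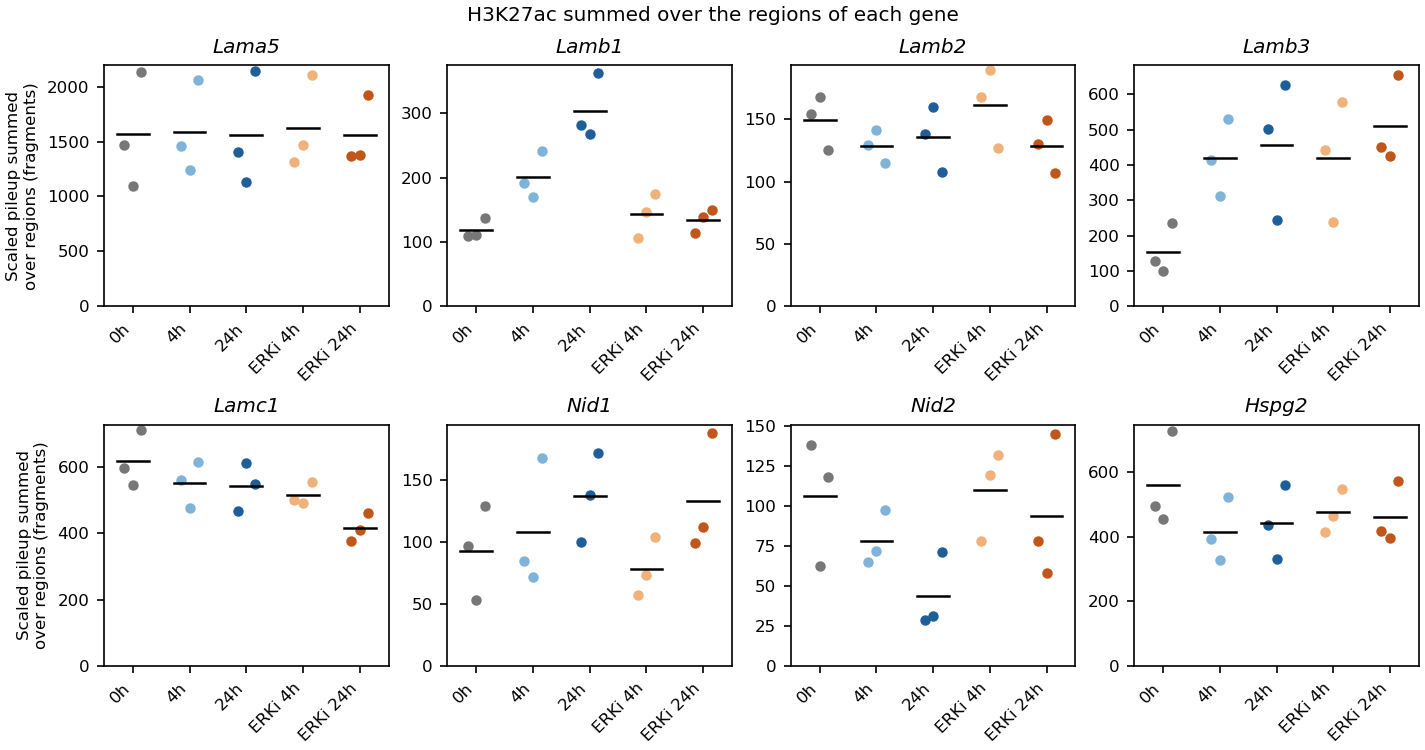
Scaled pileup summed over the called regions of each gene (vertical axis, fragments) in each library (points) with the mean of 3 (bar). The 3 libraries of 24h lie at 268 to 362 for Lamb1, above the other 12, while Lama5, Lamb2 and Hspg2 overlap in all conditions.

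Over the 15 libraries, the genes with the closest profile to Lamb1 among 12011 compared were Slpi (r = 0.954), Kcnip1 (r = 0.930) and Tec (r = 0.926). Those closest to Nid2 were Fhl1 (r = 0.954), Onecut1 (r = 0.937) and Adamts15 (r = 0.916). Lamb1 and Nid2 had r = -0.474 with each other. The points share library and depth, and the values are descriptions.

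The number of distal peaks, those outside every promoter (1000 bp upstream to 100 bp downstream of a start), differed between conditions by less than the spread between libraries. The 9 genes had 60 ± 11.8 distal peaks per library (SD, n = 3) at 0h, 62.7 ± 11 at 4h, 62 ± 5.29 at 24h, 62.7 ± 8.02 in ERKi 4h and 62 ± 8.54 in ERKi 24h. By this limit, peaks just inside a start count as distal. Over the 15 libraries, 50 of 174 distal peaks of Lama5 lay within 2500 bp of a start. At Hspg2 24 of 155 did, at Lamc1 18 of 236, at Lamb3 3 of 87 and at Lamb2 all 19. At Lamb1, Nid1 and Nid2 0 did. Two-sided exact permutation tests gave p = 0.7 for 4h and 0.8 for 24h against 0h, and p = 1 for both ERKi comparisons, in a design whose smallest p is 0.1. Between libraries of the same number the difference from 0h was -3 to 9 peaks at 4h and -5 to 10 at 24h. An exact sign-flip test of these pairs gave p = 0.75 at both times, where its smallest p is 0.25. The paired differences were -4 to 3 in ERKi 4h and -6 to 3 in ERKi 24h. Single genes were set beside all genes by whether the libraries of 2 groups were free of overlap. For distal peaks, Lamb1 alone of 8 genes had no overlap at 24h against 0h (16.2% of all genes), with 5, 3 and 7 peaks at 0h and 8, 11 and 10 at 24h, and no gene was free of overlap at 4h against 0h (5.18%), ERKi 4h (2.35%) or ERKi 24h (7.05%).

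For the promoter percentile by pileup, 5 genes had a promoter peak in any library. At 4h against 0h Lamb3 was higher and Lamc1 lower (7.07% of all genes without overlap), at 24h against 0h Lamb1 and Lamb3 higher and Lamc1 lower (9.71%), in ERKi 4h Lamb2 and Lamc1 higher (6.26%), and in ERKi 24h none (10.2%). Lamb3 had percentiles of 47, 48 and 61.7 at 0h and 82.4, 77.8 and 89.7 at 24h, and Lamc1 81.5, 77 and 77.1 at 0h and 68.4, 68.9 and 71.8 at 24h. The Lamc1 region 0.2 kb inside the gene, which lies past the promoter limit, differed by -0.10 at 24h (adjusted p = 0.832). Lamb2 had 27.4, 0 and 63.1 at 4h, where 1 library had no summit inside the promoter limit, against 70.2, 70.7 and 63.7 in ERKi 4h. The Lamb2 promoter region, with its summit 1.0 kb upstream and so close to that limit, was itself called in all 15 libraries. Its difference in ERKi 4h against 4h was 0.41 and was not called (limma adjusted p = 0.178 with the block). No region of the genes was in all libraries at 0h and none at 4h (0.396% of all regions), or in all libraries at 4h and none in ERKi 4h (0.314%).

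Other genes of the basement membrane give the setting. Of 27 such genes, 17 had a region in every library, 76 in all. At 24h against 0h, 15 were called higher (19.7% of the 76, against 10.8% of all regions) and 5 lower (6.58%, against 6.56%). At 4h against 0h 3 were higher (3.48% of all regions) and 0 lower (0.167%). In ERKi 4h 0 were higher (0.00743%) and 0 lower (0.234%), and in ERKi 24h 1 was higher (3.01%) and 3 lower (4.15%). With the replicate block these counts, in the same order, were 27 and 12, 11 and 2, 1 and 0, and 12 and 9, where 18.8% and 17.3%, 12% and 5.17%, 0.877% and 3.29%, and 13.4% and 14.1% of all regions were called. The genes with the most higher calls, 2 each, were Col4a2 (collagen IV), Col18a1 and Col15a1 (collagens of the endostatin family), Fbln1 and Fbln2 (fibulins), with largest log2 differences of 1.09, 0.91, 1.51, 1.11 and 2.40. Npnt (nephronectin, an integrin ligand) had 2 lower calls, the lowest at -1.28, and Tinagl1 and Fbln1 had 1 each. Of 28 regions at 9 receptor genes, 3 were called higher at 24h (10.7% of the 28, against 10.8% of all regions), at Itga6, Itgb1 and Sdc4. At that time 0 were called lower (6.56% of all regions). In ERKi 24h 1 was called lower, at Itga3 (4.15% of all regions). With the block 6 were higher at 4h, 8 higher and 2 lower at 24h, 1 lower in ERKi 4h, and 2 higher and 7 lower in ERKi 24h. The median difference at 24h against 0h was 0.02 over the 26 regions of the laminin, nidogen and perlecan genes and -0.03 over all 26920.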

How the data were processed

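H3K27ac ChIP-seq peak lists of 15 libraries were used, and the 10 RNA-seq and 3 input samples were not analysed here. Groups were taken from the sample labels. The authors used bowtie to align to mm9 and ran MACS2 with default parameters on each library, and the control used at that step is not given in the sources used here. In the deposited lists, the fold enrichment is the ratio of pileup to local background, significance is given as −log10 of p and of q, and the score of the authors repeats −log10 q and was not used. The lists hold no read totals, so depth is unknown and no counting interval was computed; the number of libraries limits the precision. The lists had a lowest −log10 q of 1.3 to 1.6, and the lists after merging and input correction were not used here.

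Pileup and background were solved from fold enrichment and −log10 p (Poisson upper tail), within 0.005 for all but 25 of 893719 peaks, which were left out. Overlapping peaks (1 bp) were merged into regions, assigned to the nearest protein-coding start of GENCODE vM1. The log2 pileup at the highest summit, scaled by the median of ratios over regions found in all libraries (factors 0.7768 to 1.374), was tested in limma 3.58.1 (R 4.3.3; trend, all 15 libraries, Benjamini-Hochberg over 26920 regions). The fit was checked on simulated data in which libraries varied independently, which leaves out the pairing of libraries given next. Replicate numbers are shared by all conditions. Deviations from the condition means correlated above 0.1 in 30 of 30 same-numbered pairs (mean 0.584), so the numbers pair the libraries, and a fit with the number as a block was an alternative. Other alternatives were another scaling, the percentile by pileup, fold enrichment, −log10 p, stricter peaks (−log10 q of at least 10), no trend, 50 kb windows, promoters within 2500 bp, merging within 1000 bp and each library left out. The members, gene lists and pileup as the measure were chosen with earlier results of these data known. Named are all 9 genes, regions called by limma or found in every library of a condition but in none of the condition compared, promoter regions, and the 4 list genes with most calls in each direction, with ties kept. Some genes of the lists are not reported here by name. Computation was in Python 3.11.15 with pandas 2.3.3, NumPy 2.4.6 and SciPy 1.17.1, and figures were drawn with matplotlib 3.10.9.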

Additional observations from a re-analysis of the deposited data

How the results depend on the processing

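Counts of regions called for the laminin, nidogen and perlecan genes moved with the measure. Among the settings of this section, shares of all regions are given only for the block, further above. Under the other settings, a change in these counts cannot be told from a change over all regions. With the replicate block, 5 were higher at 4h against 0h, 4 lower at 24h against 0h, 3 lower in ERKi 4h, and 3 higher and 7 lower in ERKi 24h. By fold enrichment 0 were higher at 4h, 1 higher and 1 lower at 24h, and 0 higher and 0 lower in ERKi 24h. By −log10 p, 1 was higher at 4h, 2 higher and 0 lower at 24h, and 0 and 0 in ERKi 24h. Among regions with a −log10 q of at least 10 in every library, fewer of which were tested, 1 was higher at 4h, 2 higher and 1 lower at 24h, and 0 higher and 1 lower in ERKi 24h. Scaling by the median pileup left 1 lower at 24h (the Nid2 call was lost) and 1 lower in ERKi 24h (the Lamc1 call was lost), and moved the median of all regions in ERKi 24h against 24h from -0.004 to 0.12. Without the trend 4 were lower in ERKi 24h. Fold enrichment reversed Lamb1 5.8 kb (-0.338 at 24h, 0.349 in ERKi 24h) and the Lamb3 promoter (-0.371 at 4h, -0.737 at 24h), where the local background rose with the pileup.

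Leaving out 1 library gave 1 to 3 higher at 4h, 0 to 2 lower at 24h, and 0 to 1 higher and 1 to 3 lower in ERKi 24h. The Lamb3 promoter call at 4h was lost without 0h replicate 1, 0h replicate 2, 4h replicate 1 or 4h replicate 3 (0.884 to 1.036), and the Lamc1 call without ERKi 24h replicate 1 (-0.895). Distal totals differed by -3.5 to 9.17 peaks at 4h and -3 to 8.5 at 24h with 1 library left out, and by -1.33 and -1 among the 20000 strongest peaks of each list.

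With a −log10 q of at least 10, distal peaks did not overlap for 1 gene at 4h, 1 in ERKi 4h and 1 in ERKi 24h. Promoter percentiles did not overlap for 1 gene at 4h by −log10 p and 1 with promoters of 2500 bp, for 1 at 24h by fold enrichment and 0 by −log10 p, for 0 in ERKi 4h by fold enrichment and 1 with 2500 bp, and in ERKi 24h for 1, 1 and 2 by fold enrichment, −log10 p and 2500 bp. Regions in every library of a condition and none of the other numbered, with a −log10 q of at least 10, 2 higher at 4h, 2 higher and 2 lower at 24h, 0 higher in ERKi 4h, and 1 higher and 0 lower in ERKi 24h. With peaks within 1000 bp merged they were 0 higher at 4h, 0 lower at 24h, and 1 higher and 2 lower in ERKi 24h. The Lamb3 regions 4.0 kb upstream (higher at 4h) and 25.4 kb into the gene (lower at 24h) were thus no longer among them. Shares of all genes and of all regions under these settings are not given, so the counts have no background beside them. The cause of these differences was not tested.

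For the other basement membrane genes, the block gave 11 higher and 2 lower at 4h, 27 and 12 at 24h, 1 higher in ERKi 4h, and 12 and 9 in ERKi 24h, and leaving out 1 library gave 0 to 4 higher at 4h, 6 to 20 higher and 3 to 6 lower at 24h, and 0 to 2 higher and 0 to 4 lower in ERKi 24h. For the receptors, the block gave 6 higher at 4h, 8 higher and 2 lower at 24h, 1 lower in ERKi 4h, and 2 higher and 7 lower in ERKi 24h, and leaving out 1 library gave 0 to 1 higher at 4h, 3 to 5 higher and 0 to 1 lower at 24h, and 1 to 2 lower in ERKi 24h. Depth is unknown, and a region absent from a list may hold signal below its threshold.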
